A study of Mus musculus with 51 samples.

Results

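Insulin-like growth factor 1 (Igf1), its receptor Igf1r and the binding proteins Igfbp2, Igfbp3, Igfbp4, Igfbp5, Igfbp6 and Igfbp7 were taken by gene symbol from 2 RNA-seq tables of mouse femur, a table of RPKM values (read counts scaled for gene length and library size) with 23358 listed genes and a table of normalized counts with 25938. All 8 genes were listed in both tables and passed the filter on low values in both. Peaks of 5-hydroxymethylcytosine (5hmC), H3K27me3 and H3K9me3 were then collected within 30 kb of each gene body.

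The RPKM table compared femurs of C57BL/6 mice at 20 weeks of age in 3 groups of 3 libraries. WT mice make their own vitamin C, whereas Gulotm1Mae mice lack the last enzyme of its synthesis and drank water with 3.3 g/L vitamin C. VitC+ mice drank it for 20 weeks, and VitC+/- mice for 15 weeks followed by 5 weeks without it. The count table compared femurs at 11 weeks, on a standard diet, from Prrx1-Cre+ controls (Ctrl) and from Prrx1-Cre+ mice with floxed Tet1 (Tet1 cKO), Tet2 (Tet2 cKO) or both (Tet1/2 cKO), 3 libraries each. Tet1 and Tet2 are dioxygenases that write 5hmC. Prrx1-Cre is active in early limb mesenchyme, so blood cells in the femur keep both genes. All groups of the count table therefore carried the Cre, and the VitC+ and VitC+/- groups shared the Gulo knockout, which WT lacked. Femurs had been flushed and minced. The study describes its replicates as independent animals, whereas the labels do not tie a library to a mouse, so the p-values measure the spread between these libraries.

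The labels were checked against the targeted genes. For replicates 1, 2 and 3 in turn, deposited RPKM of Gulo was 0.522, 0.486 and 0 under the WT label, 0.180, 0.0352 and 0.0294 under VitC+, and 0.0126, 0.0141 and 0.0186 under VitC+/-. All of these are below the RPKM of 1 used as the filter on low values, so this check of the labels is weak. Gulo went against the label in the library labelled WT replicate 3, where it was listed at 0. It also did in that labelled VitC+ replicate 1, where it exceeded the remaining Gulotm1Mae values. Group names below mean the libraries so labelled, and calls are given with and without these 2. The sum of 3 liver markers was also highest in VitC+ replicate 1, at 14.5 scaled RPKM beside at most 5.43 elsewhere. The part of that signal in its Gulo level was not tested. Depth, estimated from the steps of the lowest RPKM values, was about 7600000 reads in WT replicate 1 and 31200000 to 47600000 in the other 8. For 11 of the 12 Tet libraries, whole reads could be recovered from the steps of the values, and gave 28597536 reads in the shallowest and 49788434 in the deepest. The floxed parts are exon 4 of Tet1 and exon 3 of Tet2, and gene-level counts check their loss little: Tet1 averaged 409.8 ± 31.7 normalized counts in Ctrl and 448 ± 35.3 in Tet1/2 cKO (SD, n = 3). The study checked the loss by other means, with TET1 and TET2 protein blots of double knockout femurs, and reports that their global 5hmC was reduced. All 12 osteoblast and osteocyte markers were detected in every library of both tables. Their summed level was 5575 to 10900.4 scaled RPKM in VitC+, 705 to 4486 in VitC+/- and 1058 to 3981 in WT, and 5 of the 12 fell in VitC+/- against VitC+. Osteoclast markers summed to 2910 to 6451 in VitC+/-, 1862 to 2556 in VitC+ and 779 to 852 in WT, and neutrophil markers to 6765 to 22899, 28669 to 45323 and 50896 to 71937. The 8 B-cell precursor markers summed to 8.90 to 16.5 in VitC+/-, below VitC+ (57.2 to 115) and WT (26.6 to 123), and 7 of the 8 fell against each. Erythroid markers summed to 252 to 349 in VitC+/-, 142 to 222 in VitC+ and 141 to 204 in WT. In such bulk samples fewer cells of a type and less RNA per cell cannot be told apart, and the part of these shifts in the results below was not tested.

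IGF1 is a growth factor made by the liver and locally by bone cells, and signals through the receptor tyrosine kinase encoded by Igf1r to the PI3K and AKT pathway. The IGF binding proteins are secreted, hold IGFs away from the receptor or carry them to it, and release them when proteases such as PAPP-A cut them. IGF1 signalling in osteoblasts is needed for normal bone mass and mineralization.

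The later peak comparisons use all peaks within 30 kb of a gene. Some stretches that lay inside 5hmC peaks near these genes are shown here as examples. They are mm10 reference sequence (GRCm38.p6), read 5′ to 3′ on the strand of the gene, with CpG dinucleotides, the usual substrate of the Tet enzymes, in capitals. The first is the 1 stretch near Igfbp3 that 3 of the 6 5hmC lists shared, and no stretch there was shared by more. The lists were those of Ctrl, Tet1/2 cKO and MC3T3-E1 without vitamin C. It lies between genes at chr11:7194632-7194737, 19239 bases downstream of the start of Igfbp3 (minus strand), and holds 0 CpG.
Igfbp3: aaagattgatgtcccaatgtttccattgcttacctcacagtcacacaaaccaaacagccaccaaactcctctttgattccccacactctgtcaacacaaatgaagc
The next lies between genes at chr5:77408464-77408673, with its centre at -523 bases from the start of Igfbp7 (minus strand, negative values upstream), and all 6 lists held it. It has 4 CpG.
Igfbp7: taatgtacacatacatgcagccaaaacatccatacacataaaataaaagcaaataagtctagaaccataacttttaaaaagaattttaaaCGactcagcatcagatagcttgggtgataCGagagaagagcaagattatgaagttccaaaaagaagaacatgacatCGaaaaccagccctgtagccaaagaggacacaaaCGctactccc
A stretch at chr15:102143767-102144014, between genes and at -296 bases from the start of Igfbp6 (plus strand), was also held by all 6 lists. It has 5 CpG.
Igfbp6: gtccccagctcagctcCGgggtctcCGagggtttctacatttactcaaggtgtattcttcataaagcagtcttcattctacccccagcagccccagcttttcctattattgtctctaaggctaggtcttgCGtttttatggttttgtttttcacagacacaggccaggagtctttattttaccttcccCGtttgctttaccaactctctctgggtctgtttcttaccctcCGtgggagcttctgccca
The last is the 250 bases upstream of Igfbp5 at chr1:72874866-72875115 (minus strand), which lay inside a 5hmC peak of MC3T3-E1 cells given vitamin C. It has 10 CpG, and 62.2% of the 32851 RefSeq promoters of that length have fewer.
Igfbp5: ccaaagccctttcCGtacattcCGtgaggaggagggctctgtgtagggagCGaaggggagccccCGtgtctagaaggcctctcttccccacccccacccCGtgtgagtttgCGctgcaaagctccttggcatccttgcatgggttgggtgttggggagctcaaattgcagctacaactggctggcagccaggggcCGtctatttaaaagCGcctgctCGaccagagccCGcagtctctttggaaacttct
The same 250 bases upstream of Igfbp3 have 32 CpG (95.4% of promoters have fewer) and those of Igfbp7 have 26 (90.4%), so Igfbp3 has a CpG-rich start but few 5hmC peaks.

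The first comparison asked how the members differed in femurs after vitamin C was withdrawn. Igfbp3 was the one member that changed between VitC+/- and VitC+, rising 2.49-fold. Against WT, Igfbp2, Igfbp3, Igfbp4 and Igfbp7 rose, by 1.89-fold to 5.18-fold. VitC+/- differs from WT in the Gulo knockout as well as in the withdrawal, and these cannot be told apart in that comparison. The ligand Igf1, the receptor Igf1r, Igfbp5 and Igfbp6 did not pass the test in either comparison. Thus 1 of 8 members was called against VitC+, where 13.4% of the 12586 genes tested were called (5.93% higher and 7.52% lower), and 4 of 8 against WT, where 31.3% were called (15.3% higher and 15.9% lower). The median log2 fold change of the members was 0.43 against VitC+ and 0.95 against WT, beside 0.02 and 0.01 over all genes tested. Both comparisons use the same 3 VitC+/- libraries, so their values are not independent. Levels are RPKM divided by each library's median-of-ratios factor (scaled RPKM), fold changes are on the log2(scaled RPKM + 0.5) scale, which understates the change of low genes, and adjusted p-values come from limma with Benjamini-Hochberg adjustment over all genes.

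**Figure D1:**
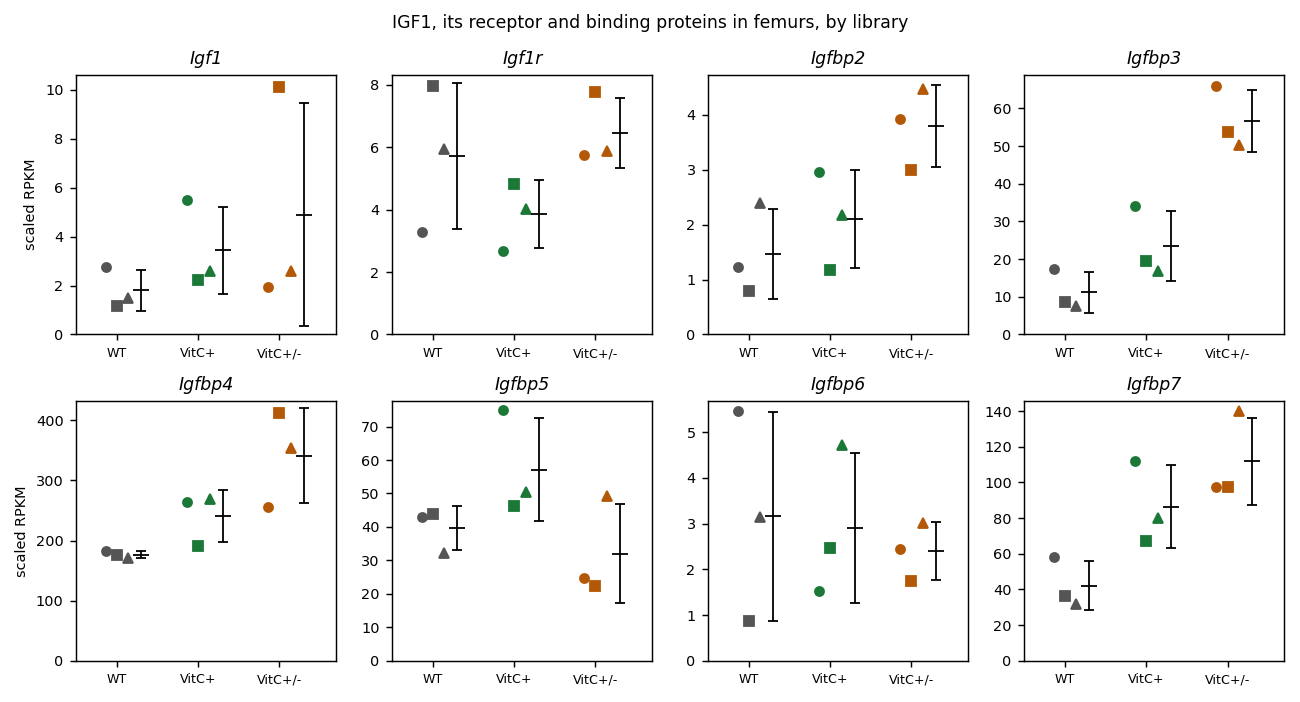
Scaled RPKM (vertical axes, a separate linear scale from 0 for each gene) of the 8 members in the libraries labelled WT, VitC+ and VitC+/-. Circles, squares and triangles are replicates 1, 2 and 3, and bars give the mean ± SD (n = 3). The 3 VitC+/- libraries of Igfbp3, between 50.4 and 66.0, lie above the 6 others, whereas a single VitC+/- library of Igf1 stands at 10.1.

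Igfbp3, the main carrier of IGFs in blood, measured 17.4, 8.63 and 7.57 scaled RPKM in WT, 34.0, 19.6 and 16.7 in VitC+, and 66.0, 53.8 and 50.4 in VitC+/-. Every VitC+/- library was above every VitC+ and every WT library, whereas the lowest VitC+ library lay just under the highest WT library. Its log2 fold change was 1.31 (SE 0.33, 95% interval 0.57 to 2.06, adjusted p = 0.0331) in VitC+/- against VitC+ and 2.37 (SE 0.33, adjusted p = 0.00156) against WT. Groups that do not overlap were common, at 40.5% of genes tested against VitC+ and 42.7% against WT. The call against VitC+ was near its threshold. Without a filter on low values its adjusted p was 0.0564, and it was 0.110 without VitC+ replicate 2, 0.109 without VitC+ replicate 3, and 0.113, 0.0613 and 0.0552 without VitC+/- replicates 1, 2 and 3. The direction held in each of these, and without the 2 libraries whose Gulo level went against their labels the log2 fold change was 1.61 (adjusted p = 0.0423) against VitC+ and 2.16 (adjusted p = 0.00992) against WT.

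Igfbp7, a secreted relative that binds IGFs weakly and is deposited in the matrix around vessels, measured 58.1, 36.5 and 32.0 scaled RPKM in WT, 112, 67.4 and 79.8 in VitC+, and 97.7, 97.5 and 140.2 in VitC+/-. Here both Gulotm1Mae groups lay above WT and overlapped each other. The summed level of the 8 endothelial markers was likewise lowest in WT, at 56.3 to 90.7 in WT, 97.7 to 132 in VitC+ and 95.2 to 112 in VitC+/-. This was not particular to them, as osteoclast markers (above) and macrophage markers were also lowest in WT. Macrophage markers summed to 144 to 211 in WT, 213 to 289 in VitC+ and 304 to 374 in VitC+/-. The part of these cell types in the level of Igfbp7 was not tested. For Igfbp7 the log2 fold change was 1.42 (SE 0.27, adjusted p = 0.00482) in VitC+/- against WT (1.25, adjusted p = 0.0276, without the 2 libraries with conflicting Gulo levels) and 0.38 (95% interval -0.22 to 0.98, adjusted p = 0.363) against VitC+. In WT against VitC+ the groups did not overlap for Igfbp4, Igfbp5 and Igfbp7, as was so for 28.7% of genes. The log2 fold change there was -1.04 for Igfbp7 (adjusted p = 0.0980) and -1.06 for Igfbp3 (adjusted p = 0.131). In that comparison limma called 0 of the 12586 genes, 0% in all, with 2769 genes and 2 members, Igfbp3 and Igfbp7, at an unadjusted p under 0.05. Without the shallow WT replicate 1, Igfbp3 was at -1.40 (adjusted p = 0.0401) and Igfbp7 at -1.28 (adjusted p = 0.0390), whereas without the 2 libraries with conflicting Gulo levels they were at -0.54 (adjusted p = 0.694) and -0.67 (adjusted p = 0.679).

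Igfbp4, a binding protein that PAPP-A cleaves, was the member with the highest level in every library of the RPKM table. It measured 182, 176 and 171 scaled RPKM in WT, 264, 191 and 268 in VitC+, and 256, 413 and 353 in VitC+/-. WT was below both other groups in every library, and VitC+/- replicate 1 lay within the VitC+ range. Against WT its log2 fold change was 0.92 (SE 0.20, adjusted p = 0.00953) and that against VitC+ 0.49 (95% interval 0.03 to 0.94, adjusted p = 0.137). Without the 2 libraries with conflicting Gulo levels the call against WT was lost (log2 fold change 0.90, adjusted p = 0.0595).

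Igfbp2, which rises in many tissues when nutrients are short, was low throughout. It measured 1.22, 0.792 and 2.39 scaled RPKM in WT, 2.96, 1.18 and 2.18 in VitC+, and 3.92, 2.99 and 4.46 in VitC+/-. The 3 VitC+/- libraries stood above the other 6, but the lowest of them, 2.99, was close to the highest VitC+ library, 2.96. Its change on the log2 scale was 1.19 (SE 0.34, adjusted p = 0.0279) against WT and 0.77 (95% interval -0.01 to 1.54, adjusted p = 0.163) against VitC+. Without the 2 libraries with conflicting Gulo levels the call against WT stood at 1.53 (adjusted p = 0.0249). It was lost under quantile normalization (adjusted p = 0.0556), without a filter (0.0542) and without WT replicate 1 (0.0584), WT replicate 2 (0.0747), VitC+/- replicate 1 (0.0810) or VitC+/- replicate 3 (0.0828).

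Igfbp5, which is abundant in bone and binds its matrix, was lower in VitC+/- than in both other groups on average, without passing the test. It measured 43.1, 44.0 and 32.1 scaled RPKM in WT, 74.8, 46.1 and 50.4 in VitC+, and 24.7, 22.3 and 49.2 in VitC+/-. Of the VitC+/- libraries 2 were below the other 7, whereas replicate 3 lay among the VitC+ libraries. Igfbp5 had a log2 fold change against VitC+ of -0.88 (95% interval -1.56 to -0.20, adjusted p = 0.0810) and that against WT -0.38 (adjusted p = 0.361). Without VitC+/- replicate 3 these were -1.24 (adjusted p = 0.0175) and -0.74 (adjusted p = 0.0493). The osteoblast and osteocyte markers had their highest sum among VitC+/- libraries in that same replicate, 4486 beside 2333 and 705. It also had the highest osteoclast sum (6451) and the lowest neutrophil sum (6765) of that group. In VitC+ the osteoblast sum and Igfbp5 were both highest in replicate 1. In WT, however, Igfbp5 was highest in replicate 2, where the osteoblast sum was lowest (1058). The part of these cell types in the level of Igfbp5 was not tested.

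Igfbp6, which prefers IGF2 over IGF1, spread widely within groups. It measured 5.45, 0.876 and 3.14 scaled RPKM in WT, 1.52, 2.47 and 4.72 in VitC+, and 2.44, 1.74 and 3.02 in VitC+/-. The WT range covered all other libraries. Its log2 fold change was -0.14 (95% interval -1.30 to 1.01, adjusted p = 0.874) against VitC+ and -0.12 (adjusted p = 0.879) against WT. Without the 2 libraries with conflicting Gulo levels the latter turned to 0.0022.

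The ligand Igf1 measured 2.77, 1.16 and 1.48 scaled RPKM in WT, 5.49, 2.23 and 2.61 in VitC+, and 1.95, 10.1 and 2.61 in VitC+/-. VitC+/- replicate 2 stood alone, and its adipocyte markers summed to 3090.5 scaled RPKM beside 107 to 411 in the other 8 libraries. Its marrow stroma markers also had the highest sum, 378 beside 118 to 264, and its osteoblast and osteocyte markers the lowest, 705. The other VitC+/- libraries lay at or below the lower end of VitC+ or within its range. For Igf1 the log2 fold change against VitC+ was 0.22 (95% interval -0.99 to 1.43, adjusted p = 0.810) and turned to -0.42 (adjusted p = 0.516) without that library. Against WT it was 0.97 (95% interval -0.24 to 2.18, adjusted p = 0.194) and 0.32 without that library. The part of adipocytes, marrow stroma or other cells in the level of Igf1 was not tested.

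The receptor gene Igf1r measured 3.28, 7.95 and 5.93 scaled RPKM in WT, 2.69, 4.84 and 4.03 in VitC+, and 5.75, 7.76 and 5.87 in VitC+/-. VitC+/- lay above VitC+ in every library, and the WT range covered both groups apart from the lowest VitC+ library. The log2 fold change was 0.70 (95% interval 0.02 to 1.38, adjusted p = 0.15) against VitC+ and 0.23 (adjusted p = 0.600) against WT. Igf1 and Igf1r thus did not move together over the 9 libraries (Pearson r = -0.16, a description with no test).

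**Figure D2:**
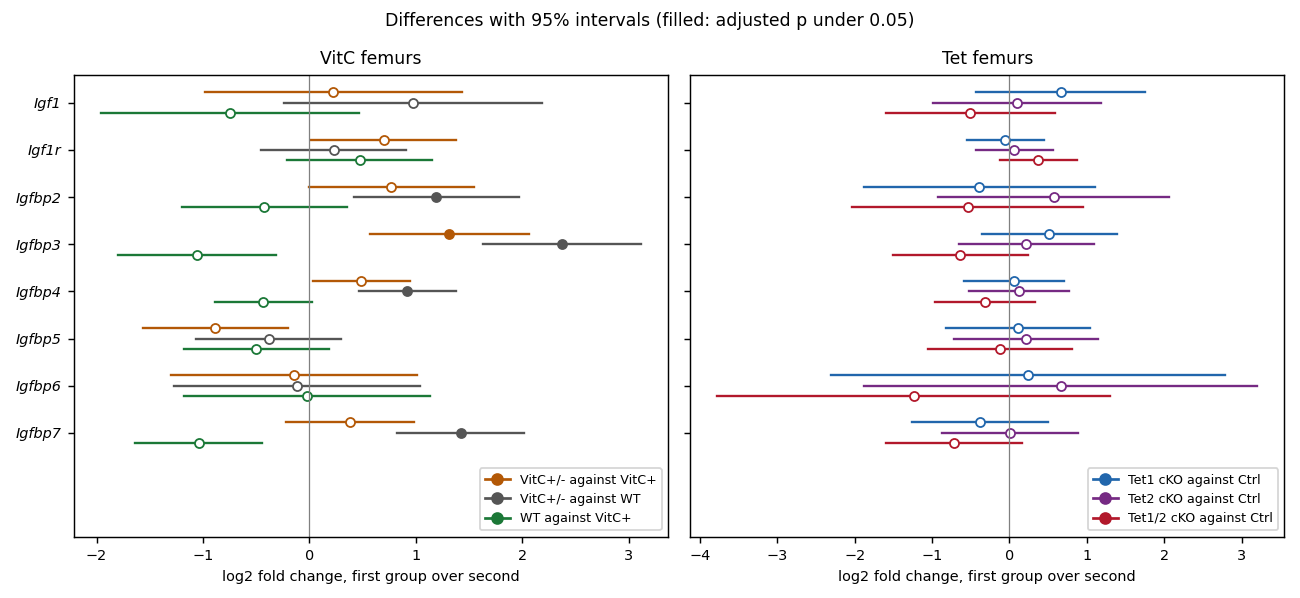
Log2 fold changes (horizontal axes, first group over second) of the 8 members with 95% intervals as lines, in the VitC femurs at the left and the Tet femurs at the right. Filled points passed an adjusted p of 0.05, which Igfbp3 did in VitC+/- against VitC+, and Igfbp2, Igfbp3, Igfbp4 and Igfbp7 did in VitC+/- against WT.

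RPKM is a level per length, so the genes could be ranked within a group. In WT the order was Igfbp4, Igfbp7, Igfbp5, Igfbp3, Igf1r, Igfbp6, Igf1 and Igfbp2, and in VitC+ Igfbp4, Igfbp7, Igfbp5, Igfbp3, Igf1r, Igf1, Igfbp6 and Igfbp2. In VitC+/- Igfbp3 (56.7 ± 8.21 scaled RPKM, SD, n = 3) stood above Igfbp5 (32.0 ± 14.9), whereas in VitC+ Igfbp5 (57.1 ± 15.5) was above Igfbp3 (23.4 ± 9.24). The ranges of Igfbp3 and Igfbp5 did not overlap in any of the 3 groups. Igfbp7 and Igfbp5 overlapped in WT and VitC+, and the 4 lowest genes overlapped their neighbours among themselves in every group. Igf1r, the highest of these 4, overlapped Igfbp3 above it in WT, but not the gene above it in VitC+ or VitC+/-. The 6 binding protein genes summed to 274 ± 30.3 scaled RPKM in WT, 413 ± 80.8 in VitC+ and 547 ± 83.8 in VitC+/-. Of that sum Igfbp3 made up 3.98% ± 1.46 in WT, 5.62% ± 1.52 in VitC+ and 10.7% ± 3.42 in VitC+/-. Igfbp5 made up 14.5% ± 1.85, 13.8% ± 1.70 and 5.81% ± 2.23, in the same order. Its highest share in VitC+/-, 8.19%, was below its lowest in VitC+, 11.9%, whereas Igfbp4 kept near 60% of the sum with 64.7%, 58.6% and 61.8%. These shares are descriptions of the same libraries and were not tested.

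The relatives of the members varied in level. Igfbp1, the binding protein that insulin represses in liver, was listed at 0 in 8 of the 9 libraries. It measured 0.0507 scaled RPKM in the other, the library labelled VitC+ replicate 1. Igf2, the fetal growth factor of the family, measured 8.52, 0.642 and 1.12 scaled RPKM in WT, 40.4, 1.74 and 2.17 in VitC+ and 4.11, 5.38 and 5.23 in VitC+/-. The high Igf2 libraries, VitC+ replicate 1 and WT replicate 1, also had the highest sums of 3 liver markers, 14.5 and 5.43 beside at most 0.818 in the other 7, and the part of that signal was not tested. The IGF2 scavenger Igf2r measured 5.14 to 11.1 with overlapping groups.

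A list of 28 further genes of the IGF system, chosen like the members with earlier results known, had 19 tested genes. In VitC+/- against VitC+ 2 rose and 0 fell, with 5.93% of all genes called higher and 7.52% lower, and the median log2 fold change was 0.23 beside 0.02 over all genes. Pappa, the protease that cleaves Igfbp4, rose by a log2 fold change of 1.13 (SE 0.31, adjusted p = 0.0439), from 0.939 to 1.47 scaled RPKM in VitC+ to at most 5.52 in VitC+/-, where no library reached down to VitC+. Irs2, an adaptor of the insulin and IGF1 receptors, rose by 1.76 (SE 0.50, adjusted p = 0.0482), from 0.883, 0.881 and 1.11 to 2.46, 11.4 and 2.88, with its highest value in VitC+/- replicate 2. Irs2 did not overlap between these groups either, but neither gene passed without the 2 libraries with conflicting Gulo levels, where 0 of 19 were called. Without VitC+/- replicate 2 Pappa alone passed. Against WT 6 rose (Pappa, Stc2, Irs1, Grb10, Ghr and Socs2) and 2 fell (Grb2 and Stat5b, neither with the RPKM as deposited), with a median of 1.07 beside 0.01 over all genes, of which 15.3% were called higher and 15.9% lower. Without the 2 libraries with conflicting Gulo levels Pappa and Stc2 rose and 0 fell. Ghr is the growth hormone receptor and Socs2 one of its inhibitors. In WT against VitC+ 0 of 19 were called.

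In the PI3K and AKT pathway, the main route downstream of the receptor, 25 of 26 listed genes were tested. In VitC+/- against VitC+ 4 rose and 0 fell (all genes 5.93% and 7.52%), with a median log2 fold change of 0.21 beside 0.02 over all genes. Akt1 rose by 0.60 (SE 0.16, adjusted p = 0.0409), Tsc1, a brake on mTORC1, by 0.91 (SE 0.16, adjusted p = 0.0107), and the mTOR partners Rptor by 1.13 (SE 0.17, adjusted p = 0.00504) and Rictor by 0.84 (SE 0.21, adjusted p = 0.0331). Of these 4, Tsc1 and Rptor passed with the RPKM as deposited, and Rptor alone without the 2 libraries with conflicting Gulo levels. Against WT 6 rose and 2 fell (Pik3cd and Akt2, neither with the RPKM as deposited), where 15.3% and 15.9% of all genes did. With the RPKM as deposited 4 rose. Without the 2 libraries with conflicting Gulo levels 2 rose (Tsc1 and Rptor) and 0 fell. The genes named here for the pathway and against WT were chosen after their values were seen.

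For each member the 3 genes with the most similar levels over the 9 libraries were listed as a description. The points share libraries and groups, and the correlation over the 12 Tet libraries is given beside each. Igfbp7 was closest to Synpo (r = 0.99, and 0.72 in the Tet libraries), followed by Slc38a6 (0.98 and 0.28) and Sox12 (0.98 and 0.33). Igfbp3 was closest to Afap1l1 (0.99 and 0.77), Tmem8b (0.98 and 0.62) and Ddit4 (0.97 and 0.57). Igf1r was closest to Ep300 (0.99 and 0.67), Hipk1 (0.99 and 0.91) and Sin3a (0.98 and 0.80). These 3 members thus had neighbours at 0.97 or above in the VitC libraries, of which Hipk1 alone stayed above 0.90 in the Tet libraries. Igf1 was closest to Cygb (0.95 and 0.70), Aoc3 (0.95 and 0.76) and Mamdc4 (0.92 and 0.16). Igfbp4 was closest to Rasgef1b (0.97 and 0.61), Tctn1 (0.97 and 0.67) and Thra (0.96 and 0.40). Igfbp5 was closest to Vps41 (0.95 and 0.38), Gnas (0.92 and 0.72) and Srr (0.92 and 0.67). Aoc3 is an adipocyte and smooth muscle amine oxidase and Thra a thyroid hormone receptor. Igfbp2 was closest to Lemd2 (0.94 and 0.66), Ccdc122 (0.94 and 0.45) and Spata6 (0.93 and -0.49). Igfbp6 had the least similar neighbours, Fbxl19 (0.85 and -0.22), 2810428I15Rik (0.84, with no entry of that name in the Tet table) and Rabac1 (0.84 and 0.52). Among the members themselves Igfbp3 and Igfbp7 had r = 0.91 over the VitC libraries and 0.70 over the Tet libraries.

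The second experiment asked what loss of Tet1, Tet2 or both did to the same genes. No member passed the test in any Tet comparison, where limma called 2 of 16780 genes in Tet1 cKO and 2 in Tet2 cKO (0.0119% each) and 0 in Tet1/2 cKO (0%), with 382, 368 and 847 genes at an unadjusted p under 0.05. On the reads recovered from 11 of the 12 libraries edgeR called 0, 1 and 0 genes and DESeq2 13, 15 and 11, in that order, none of them a member. In Tet1/2 cKO 7 of 8 members were lower than in Ctrl and Igf1r was higher. Their median log2 fold change was -0.52, beside -0.01 over all genes, and the adjusted p-values ran from 0.723 to 0.929. The 3 comparisons share the Ctrl libraries. Normalized counts are not per length, so levels are compared within a gene only.

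**Figure D3:**
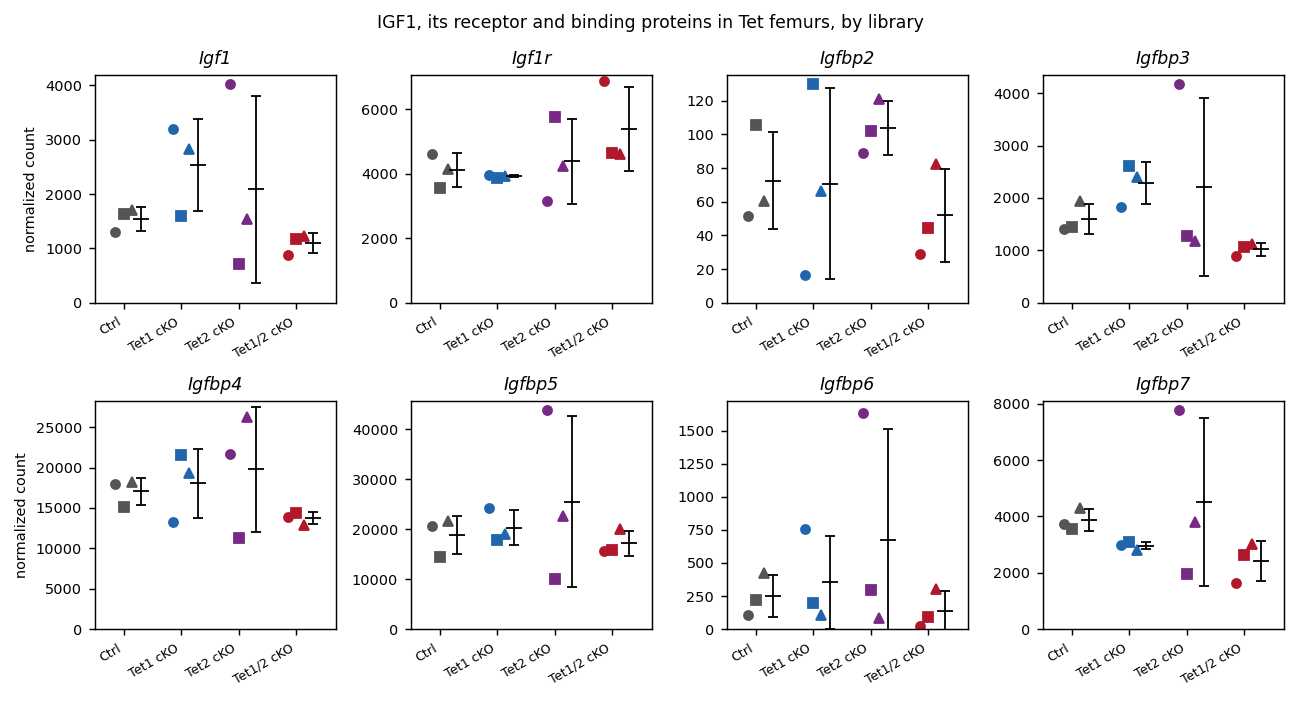
Normalized counts (vertical axes, a separate linear scale from 0 for each gene) of the 8 members in femurs of Ctrl mice and of the 3 knockouts. Circles, squares and triangles are replicates 1, 2 and 3, and bars give the mean ± SD (n = 3), drawn from 0 upwards. Tet2 cKO replicate 1 is the highest library for Igf1, Igfbp3, Igfbp5, Igfbp6 and Igfbp7, whereas the Tet1/2 cKO libraries of Igfbp3, 887 to 1114, lie below Ctrl.

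Igfbp3 measured 1411, 1446 and 1933 normalized counts in Ctrl and 887, 1064 and 1114 in Tet1/2 cKO. The groups did not overlap, as was so for 17.4% of all genes tested. The log2 fold change was -0.64 (95% interval -1.51 to 0.24, adjusted p = 0.723). In Tet1 cKO Igfbp3 measured 1828, 2607 and 2407, and in Tet2 cKO 4172, 1271 and 1175. Tet1 cKO replicate 1 lay within the Ctrl range, and Tet2 cKO replicate 1 stood far above the other Tet2 cKO libraries. The interaction, the departure of Tet1/2 cKO from the sum of the single knockouts, was -1.37 for Igfbp3 (95% interval -2.60 to -0.13, adjusted p = 0.460). It was -0.78 without Tet2 cKO replicate 1.

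Igfbp7 measured 3742, 3543 and 4294 normalized counts in Ctrl, 2988, 3078 and 2825 in Tet1 cKO, 7792, 1947 and 3803 in Tet2 cKO and 1638, 2614 and 3023 in Tet1/2 cKO. All Tet1 cKO and all Tet1/2 cKO libraries were below the lowest Ctrl library. The log2 fold change was -0.38 (95% interval -1.26 to 0.50) in Tet1 cKO, where the groups of 7.82% of genes did not overlap (5.97% in Tet2 cKO, with 0 members among them), and -0.71 (95% interval -1.59 to 0.17) in Tet1/2 cKO. Igf1 measured 1299.5, 1626 and 1711 in Ctrl, 3197, 1589.7 and 2822 in Tet1 cKO, 4014, 715 and 1539 in Tet2 cKO and 883, 1165 and 1228 in Tet1/2 cKO. The Tet1/2 cKO libraries were below all Ctrl libraries and their log2 fold change was -0.51 (95% interval -1.60 to 0.59).

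Igf1r measured 4599, 3549 and 4155 normalized counts in Ctrl and 6882, 4632 and 4613 in Tet1/2 cKO, and was the one member that was higher in each double knockout library. Its log2 fold change was 0.37 (95% interval -0.13 to 0.87). Igf1r counts in Tet1 cKO were 3956, 3879 and 3935, and in Tet2 cKO 3159.7, 5757 and 4228, both overlapping Ctrl. Over the 12 libraries Igf1 and Igf1r were opposed (Pearson r = -0.83, a description over libraries that share groups).

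Igfbp4 measured 17926, 15158 and 18177 in Ctrl and 13916, 14386 and 12878 in Tet1/2 cKO, without overlap and with a log2 fold change of -0.31 (95% interval -0.96 to 0.33). Igfbp4 spread from 11305 to 26321 in Tet2 cKO. Igfbp5 measured 20609, 14524 and 21626 in Ctrl and 15696, 15856 and 19989 in Tet1/2 cKO, with full overlap and a log2 fold change of -0.13. Igfbp2 had few counts, 51.8, 106 and 60.3 in Ctrl and 29.0, 44.1 and 82.5 in Tet1/2 cKO, and a log2 fold change of -0.54. Igfbp6 varied from 25.9 to 1634 over the 12 libraries, and its log2 fold change in Tet1/2 cKO was -1.24 with an interval from -3.78 to 1.31. Without Tet1/2 cKO replicate 1 it was -0.36, without Tet1/2 cKO replicate 3 it was -2.11, and without Ctrl replicate 3 it was -0.75. Igfbp1 was listed at 0 in all 12 libraries.

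In Tet1 cKO the members' log2 fold changes ran from -0.39 to 0.66 and in Tet2 cKO from 0.01 to 0.66, with adjusted p = 1.00 for every member. The highest value of 5 members came from Tet2 cKO replicate 1, whose adipocyte markers summed to 44137 normalized counts beside at most 18479 in the other 11 libraries. That library also had the highest sums of endothelial markers (34021) and of skeletal muscle markers (1201684.5), and the lowest of neutrophil markers (384081). Skeletal muscle markers varied widely between the Tet libraries, down to 2409 in Tet2 cKO replicate 3. The osteoblast and osteocyte markers summed to 316706 to 700218 in Tet1/2 cKO and 1010957 to 1304994 in Ctrl, without overlap, and 0 of the 12 passed the test. Adipocyte markers summed to 5984 to 13511 in Tet1/2 cKO and 15670 to 18479 in Ctrl, again without overlap and with 0 of 8 past the test. The part of these in the members' levels was not tested. None of the 23 tested genes of the wider IGF system and none of the 26 of the PI3K and AKT pathway passed in any Tet comparison, at an adjusted limma p of 0.05, and in Tet1/2 cKO the medians were -0.61 and 0.11.

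The next question was whether 5hmC near the members differed with vitamin C or the Tet enzymes. Peaks had been called on pooled samples (3 femurs a group, or 2 cultures a group for MC3T3-E1, a mouse line of calvarial pre-osteoblasts grown for 28 days with or without 50 µg/ml vitamin C). The lists thus carry no replicate error, no test was made, and a difference between lists cannot be told apart from a difference in how much was called. The length covered by peaks within 30 kb of a gene was compared as a ratio after adding 1000 bases to both sides, and counted as past the fold at 1.5.

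**Figure D4:**
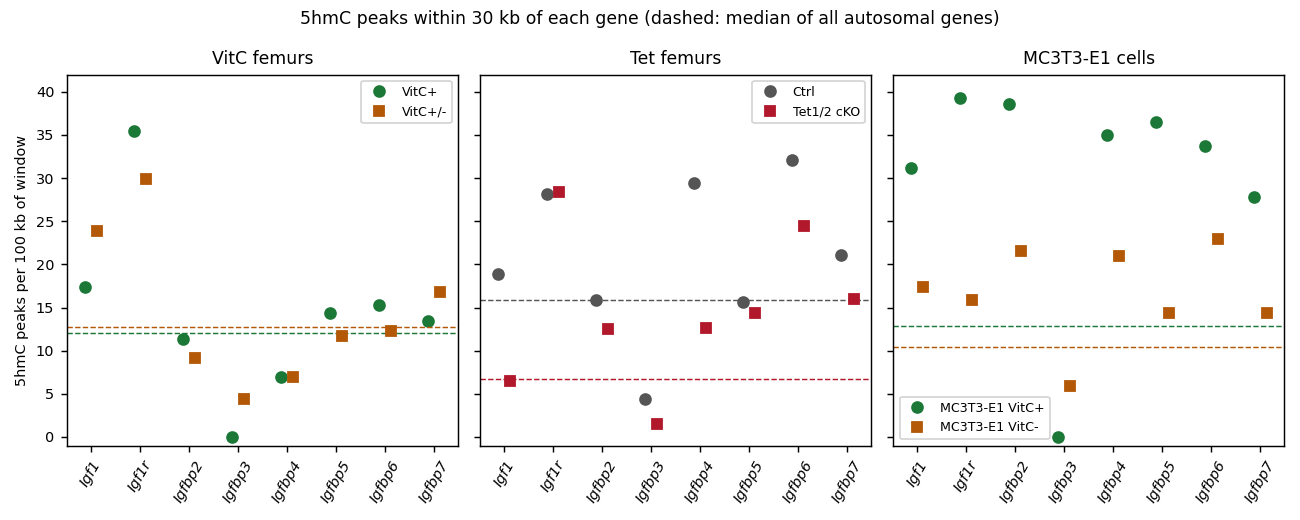
5hmC peaks per 100 kb of window (vertical axis, linear) for the 8 members in the 2 lists of each of the 3 experiments. Dashed lines mark the median over 22229 autosomal gene windows in the list of the same colour. Igfbp3 is the lowest member in all 6 lists, with 0 in VitC+ femurs and in MC3T3-E1 cells given vitamin C.

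Igfbp3 (mm10 chr11:7206091-7213923) had the fewest 5hmC peaks of the members in each list. Its window held 3 peaks covering 883 bases in VitC+/- femurs and 0 in VitC+ femurs. It held 3 (1511 bases) in Ctrl, 1 (312 bases) in Tet1/2 cKO, and 0 and 4 (1399 bases) in MC3T3-E1 cells with and without vitamin C. In VitC+ femurs 1.48% of gene windows had no peak, and in MC3T3-E1 cells given vitamin C 15.8% had none. In VitC+/- femurs the density of 4.42 per 100 kb at Igfbp3 exceeded that of 11.8% of windows. Its density exceeded that of 21.9% of windows in Ctrl, 21.6% in Tet1/2 cKO and 17.1% in MC3T3-E1 cells without vitamin C. One VitC+/- peak of Igfbp3, chr11:7215154-7215465 with a fold enrichment of 2.80, lay in the first exon of a longer RefSeq transcript of the gene. The other peaks were at chr11:7228522-7228836 and chr11:7230843-7231098. Neither the Ctrl list nor the MC3T3-E1 list without vitamin C had a peak at these 3 places. The 106 bases printed above for Igfbp3 are where the Ctrl peak (4.84-fold enriched), the Tet1/2 cKO peak (3.81-fold) and the peak of MC3T3-E1 cells without vitamin C (5.41-fold) meet.

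Over all members, the covered length was lower in VitC+/- than in VitC+ femurs for 5 and higher for 3, with a median log2 ratio of -0.23 beside -0.11 over all genes. None was past the fold on the lower side, where 7.54% of genes were, and Igfbp3 alone was on the higher side, where 11.2% were. Its ratio rests on the added 1000 bases, as VitC+ had no peak there. Igf1r had 102 peaks covering 47176 bases in VitC+/- and 121 covering 62635 in VitC+, and Igf1 had 33 (14702 bases) and 24 (11165). Igfbp7 had 20 (8228 bases) and 16 (6955). The remaining binding proteins had 5 to 11 peaks in either list. Igfbp4 had 5 in both, covering 1782 and 1894 bases. Near members, 80.8% of the 182 VitC+/- peaks met a peak of the VitC+ list, and 73.7% of the 190 VitC+ peaks met one of the VitC+/- list. Over all peaks these shares were 73.7% and 77.8%. Igf1r gave 102 of the 182 and 121 of the 190 peaks near members.

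In Tet1/2 cKO femurs all 8 members had less covered length than in Ctrl and all 8 were past the fold, as were 85.9% of all genes. The median log2 ratio was -1.16 for the members and -1.12 for all genes. Igf1 went from 26 peaks and 18777 bases in Ctrl to 9 peaks and 5353 bases. Igfbp4 went from 21 peaks (17196 bases) to 9 (6491) and Igfbp7 from 25 (34662 bases) to 19 (13316). Igf1r kept its number, 96 in Ctrl and 97 in Tet1/2 cKO, while the covered length went from 216879 to 136955 bases. Igfbp6 went from 21 peaks (24792 bases) to 16 (10375). Of the 163 Tet1/2 cKO peaks near members 98.8% overlapped a Ctrl peak, and of the 207 Ctrl peaks 55.6% overlapped a Tet1/2 cKO peak. The shares over all peaks, in gene windows or not, were 96.8% and 46.7%. Igf1r gave 97 of the 163 and 96 of the 207 peaks, so the shares near members rest largely on it. By median covered length the members stood near all genes in both femur experiments.

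In MC3T3-E1 cells vitamin C went with more covered length at 7 members and less at Igfbp3. Of these 6 were past the fold on the higher side, where 48.8% of genes were, and Igfbp3 was past it on the lower side, with 28.3% of genes. The median log2 ratio was 1.35 for the members and 0.54 for all genes. Igf1r went from 54 peaks (29756 bases) without vitamin C to 134 (131951 bases) with it. Igfbp5 went from 11 peaks (7834 bases) to 28 (21863), among them the peak over its printed promoter. Igfbp4 went from 15 (7543 bases) to 25 (20544) and Igfbp7 from 17 (9000.0 bases) to 33 (29052). The windows of Igfbp2 and Igfbp5, neighbours on chromosome 1, overlap by 54407 bases and share 22 of these peaks with vitamin C and 9 without, so the pair does not count as separate evidence. Near members, 72.0% of the 150 peaks without vitamin C met a peak of the list with it, beside 33.6% over all peaks. In the other direction 32.7% of the 297 peaks with vitamin C did, beside 36.0%. Igf1r gave 54 of the 150 and 134 of the 297.

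The position of the nearest peak was steady at 2 members. At Igfbp7 (chr5:77349240-77408045) the nearest 5hmC peak was centred at -756 to -474 bases from the start in all 6 lists, the place of the printed sequence. Most other Igfbp7 peaks lay in its introns, 16 of 20 in VitC+/-, 12 of 16 in VitC+ and 17 of 25 in Ctrl. At Igfbp6 (chr15:102144186-102149512) the nearest peak was at -1163 bases in Ctrl, -644 in Tet1/2 cKO and -296 to -192 in the other 4 lists. Igf1r (chr7:67952257-68233667) was the densest member in femurs given or deprived of vitamin C, at 35.4 and 29.9 peaks per 100 kb, more than 94.8% and 92.6% of windows. Of its peaks 104 of 121 and 86 of 102 lay in Igf1r introns.

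**Figure D5:**
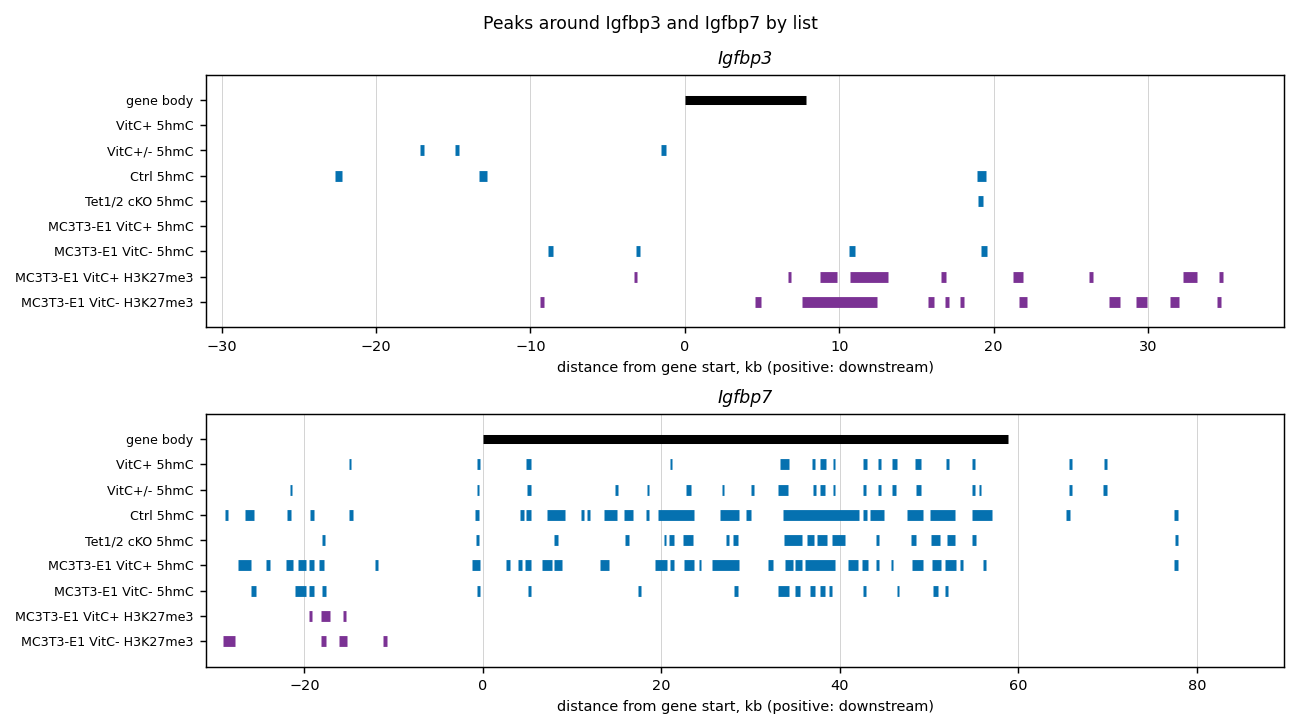
Peaks (blue for 5hmC, purple for H3K27me3) around Igfbp3 and Igfbp7 against the distance from the gene start in kb, positive downstream, with the gene body in black and a row for each list. Igfbp3 has 0 to 4 5hmC peaks in each list and 9 or 11 H3K27me3 peaks, whereas Igfbp7 has 16 to 33 5hmC peaks, with a peak just upstream of its start in all 6 lists.

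H3K27me3, the mark of Polycomb repression, and H3K9me3, a mark of heterochromatin, had been profiled in MC3T3-E1 cells with and without vitamin C. The labels give 28 days of culture and the study's methods 7 days for these samples, and peaks as weak as a -log10 q of 1.01 were listed. Igfbp3 had the most H3K27me3 peaks of the members, 9 covering 6212 bases with vitamin C and 11 covering 9234 without. Their highest -log10 q was 1.52 with vitamin C and 2.68 without. By covered length Igf1r (31545 bases) and Igfbp5 (11711) held more without vitamin C, and Igf1r (25672) held more with it. Without vitamin C the density of Igfbp3, 16.2 per 100 kb, was above that of 95.7% of gene windows. With vitamin C its 13.3 per 100 kb was above 87.1%. The other members had 0 to 9 H3K27me3 peaks in each list. The covered length was lower with vitamin C at 6 members and absent from both lists at Igf1 and Igfbp6. Of the 6, 4 were past the fold, as were 54.3% of genes, and the median log2 ratio was -0.61, beside -0.66 over all genes. Igfbp5 went from 9 peaks (11711 bases) without vitamin C to 3 (1642 bases), and Igfbp2 from 7 (8460.0 bases) to 2 (1428), again with shared peaks. H3K9me3 was sparse, at 0 to 4 peaks a window. It covered less with vitamin C at 6 members and more at Igfbp3, which had 1 peak of 268 bases with vitamin C and 0 without. Of the 6, 5 were past the fold, as were 47.9% of genes, with a median log2 ratio of -1.01 beside -0.55.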

How the data were processed

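RNA-seq of femurs was given as RPKM (9 VitC libraries) and as normalized counts (12 Tet libraries). Per the labels' processing notes, the authors used Trim Galore 0.4.3.1, STAR 2.6.0b-1, featureCounts 1.6.3 and DESeq2 2.11.40.2 with mm10 for reads, and BWA 0.7.15.1 and MACS2 for peaks. The deposited RPKM values carried no other scaling, and the deposited normalized counts are a signal, counts divided by size factors. The deposited peak lists, called on pooled samples, hold for each peak the fold enrichment (a ratio to local background) and the -log10 of its q-value. Whole reads were recovered from the count steps in 11 libraries (100% of values whole within 0.01), not in Tet1 cKO replicate 3.

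RPKM was divided by median-of-ratios factors. limma 3.58.1 (R 4.3.3, moderated with trend) was fitted to log2(scaled RPKM + 0.5) for genes that reached an RPKM of 1 in 3 libraries or more, and to log2(normalized count + 1) for genes that reached 10 in 3 or more, over all groups of a table. Calls were made at 0.05 after Benjamini-Hochberg adjustment. edgeR 4.0.16 and DESeq2 1.42.0 on recovered reads, other scalings, pseudocounts, filters, left-out libraries, windows and peak thresholds were alternatives. The fits were tested on simulated data. The members and gene lists were chosen with earlier results of these data known. All members, genes of the wider IGF list that passed against VitC+ or in a Tet comparison, and the 3 genes most like each member were named by rule. For RPKM, intervals cover only the spread between libraries, and the depth of the pooled peak lists was unknown. Sequences came from RefSeq's GRCm38.p6.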

Additional observations from a re-analysis of the deposited data

How the results depend on the processing

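Called members were 1 in VitC+/- against VitC+, 4 against WT and 0 in every other comparison. Against VitC+ the count was 0 without a filter and 0 to 1 when 1 library was left out. In WT against VitC+ it was 0 to 2 when 1 library was left out. The RPKM as deposited moved the median log2 fold change of all genes from 0.02 to 0.13 against VitC+ and from 0.04 to 0.12 in WT against VitC+, with member calls unchanged in number (1, 4 and 0). Without the 2 libraries whose Gulo level went against their labels, an alternative chosen after seeing the data, 253 genes were called against VitC+ and 1649 against WT, instead of 1692 and 3934.

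With the replicate number as a block, 2 members were called in VitC+/- against VitC+ (Igf1r added, adjusted p = 0.0378) and 2 in WT against VitC+ (Igfbp3, adjusted p = 0.0264, and Igfbp7, 0.0449), of 2169 and 774 genes. Same-numbered VitC libraries correlated at -0.19 to 0.46 (median 0.087) and differently numbered ones at -0.37 to 0.42 (median -0.068). For the Tet libraries these ranges were -0.57 to 0.53 (median -0.16) and -0.62 to 0.55 (median 0.11). The ranges overlap, so whether the numbers pair the samples cannot be told from these values.

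Several values near 0 changed sign. Igfbp6 went to 0.0022 in VitC+/- against WT without the 2 libraries, and in WT against VitC+ to 0.017 with the deposited RPKM, 0.18 with quantile normalization and 0.00071 with a pseudocount of 1. Igfbp2 in Tet1 cKO went to 0.0060 with edgeR and 0.018 with DESeq2. When 1 library was left out, log2 fold changes in VitC+/- against VitC+ ran from -0.42 to 0.63 for Igf1 and -0.47 to 0.22 for Igfbp6. Against WT they ran from -0.11 to 0.48 for Igf1r and -0.71 to 0.34 for Igfbp6, and in WT against VitC+ from -0.49 to 0.56 for Igfbp6. In Tet1 cKO the ranges were -0.16 to 0.031 for Igf1r, -1.04 to 0.42 for Igfbp2, -0.088 to 0.26 for Igfbp4, -0.066 to 0.22 for Igfbp5 and -0.55 to 0.85 for Igfbp6. In Tet2 cKO they were -0.55 to 0.69 for Igf1, -0.16 to 0.27 for Igf1r, -0.37 to 0.54 for Igfbp3, -0.12 to 0.49 for Igfbp4, -0.30 to 0.76 for Igfbp5, -0.47 to 1.69 for Igfbp6 and -0.50 to 0.50 for Igfbp7. For the interaction they were -0.999 to 0.063 for Igfbp5 and -0.84 to 0.16 for Igfbp7.

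Counting peaks in place of covered length gave a median log2 ratio of -0.38 for 5hmC in Tet1/2 cKO and 0.015 for Igf1r there. The H3K27me3 median was 0 at a -log10 q of at least 5 and 0 in the gene body alone. That of H3K9me3 was 0 in both of these and -0.28 within 30 kb of the gene start. The causes of these changes were not tested. WT replicate 1 had the fewest reads, and the effect of depth on the members' values was not measured.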
